A study of Mus musculus with 6 samples.

Results

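Integrins, laminins and nidogens, the genes by which cells hold on to the basement membrane and to each other, were followed in the colon of mice prone (OP) or resistant (OR) to obesity. These families were chosen with earlier results of these data known. Within them, all genes of the deposited table whose symbol is that of an integrin alpha subunit, an integrin beta subunit, a laminin chain or a nidogen were taken, without regard to their values. This gave 39 of 17778 genes, namely 18 integrin alpha, 8 integrin beta, 11 laminin and 2 nidogen genes. Colon RNA came from 3 OP and 3 OR mice, each mouse a library of its own. Both groups were wild-type male C57BL/6J mice on the same high-fat diet (60% of it fat) for 16 weeks, 21 weeks old at sampling, with no other treatment. The OP mice came from the upper quartile of weight gain on that diet and the OR mice from the lower quartile, so the groups differ by an outcome and not by an assigned treatment. Mice on the normal diet and the part of the colon that was taken were not analysed here. Levels are given as FPKM, in which fragment numbers are divided by transcript length and library size, so they can be compared between genes per unit of length.

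Laminins are trimers of an alpha, a beta and a gamma chain that form sheets under epithelia and around muscle, nerves and vessels. Nidogens tie the laminin sheet to the collagen IV network of the basement membrane. Integrins are receptors built of an alpha and a beta subunit, and the pair decides whether the cell binds laminin, collagen, fibronectin-type ligands or another cell. In the colon, epithelial cells rest on laminin through integrins that contain Itgb1 or Itgb4, and leukocytes use integrins of their own to enter and stay in the mucosa.

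The tissue had the markers of whole colon. Of the epithelial markers, *Epcam* was between 935 and 1188 FPKM. Of the smooth muscle markers, *Acta2* had 363 to 485 FPKM in OP mice and 487 to 820 FPKM in OR mice. The 6 fibroblast markers had a summed level of 54.6 to 119 FPKM in OP mice and 172 to 402 FPKM in OR mice, and the 8 blood endothelium markers 16.3 to 25.1 FPKM and 27.7 to 47.4 FPKM. The 6 macrophage markers summed to 25.3 to 64.2 FPKM and 69.4 to 98.3 FPKM. The sums of these 3 lists did not overlap between the groups. Gene by gene, all OP mice lay below all OR mice in 4 of 6, 4 of 8 and 5 of 6, against 6.81% of all genes tested. The log2 fold change OP/OR was below 0 in 6 of 6, 8 of 8 and 6 of 6 of their genes, against 70.1% of all genes tested. The 7 epithelial markers summed to 7941 to 21363 FPKM in OP mice and 10108 to 22151 FPKM in OR mice, with overlap. The 6 smooth muscle markers summed to 1391 to 2224 FPKM in OP mice and 1722 to 3195 FPKM in OR mice, with overlap. All 6 had a log2 fold change below 0, as had 3 of 3 enteric glia, 4 of 5 lymphocyte and 3 of 4 adipocyte markers tested. Of the neutrophil and epithelial markers tested, 1 of 2 and 2 of 7 were below 0. In such a mixed tissue fewer cells of a type and less RNA per cell cannot be told apart. OP mouse 1 stood apart in scale, with a median-of-ratios factor of 0.803 against 0.983 to 1.11 in the other mice, and its 10 highest genes took 9.88% of its total.

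The clearest separation of the groups lay in 5 basement membrane genes, none of which passed the test over all genes. *Lama2*, *Lama4*, *Lamb1*, *Lamc1* and *Nid1* were lower in all 3 OP mice than in all 3 OR mice, with OR means between 1.66 and 3.48 times the OP means. No integrin gene among those tested separated the groups. Of those too low to test, *Itgad* did, with 0.05 to 0.18 FPKM in OP mice and 0.20 to 0.35 FPKM in OR mice. Of the 39 genes, 36 reached 0.5 FPKM in 3 or more mice and were compared by limma-trend on log2(FPKM + 1) over 13520 genes. Genes called at a Benjamini-Hochberg q-value below 0.2, with a fold change no smaller than 1.2 or no larger than 0.83, numbered 0 of 36, the lowest limma-trend q-value among them being 0.826, against 0.0222% of all genes called lower and 0% called higher. At an unadjusted limma-trend p below 0.05, 5 of 36 (13.9%) were lower in OP mice, against 3.53% of all genes tested, and 0 were higher, against 0.503%. All OP mice lay below all OR mice in the same 5 of 36 genes, against 6.81% of all genes, and above them in 0, against 1.63%. The 3 genes not tested were *Lama1*, *Itgad* and *Itgb8*, with highest values of 0.15, 0.35 and 0.34 FPKM. *Lama2*, *Itga11* and *Lamc3* passed the filter with 3 OR mice and 1 OP mouse, so their entry leaned on the group where they were high. *Lama2* is 1 of the 5 genes counted above. With a filter of 1 FPKM in all 6 mice, which *Lama2* did not pass, 4 of 27 genes were lower at an unadjusted limma-trend p below 0.05. Of all genes tested with that filter, 317 of 11209 were lower.

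The count of 5 depended on single mice. It was 3 without OR mouse 3, which left *Lama2*, *Lama4* and *Nid1*. Without OR mouse 2, *Lamb1* no longer passed that level. It was 8 without OP mouse 2 and 13 without OP mouse 3, when integrins of leukocytes joined the list. The count over all genes moved too. With all mice, 477 of 13520 genes were lower at an unadjusted limma-trend p below 0.05. Without OR mouse 3 it was 223 of 13366, without OP mouse 2 it was 615 of 13405 and without OP mouse 3 it was 1094 of 13340. *Lama2*, *Lama4* and *Nid1* stayed at an unadjusted limma-trend p below 0.05 in 6 of 6 fits that each left out 1 mouse, *Lamc1* in 5 and *Lamb1* in 4.

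**Figure D1:**
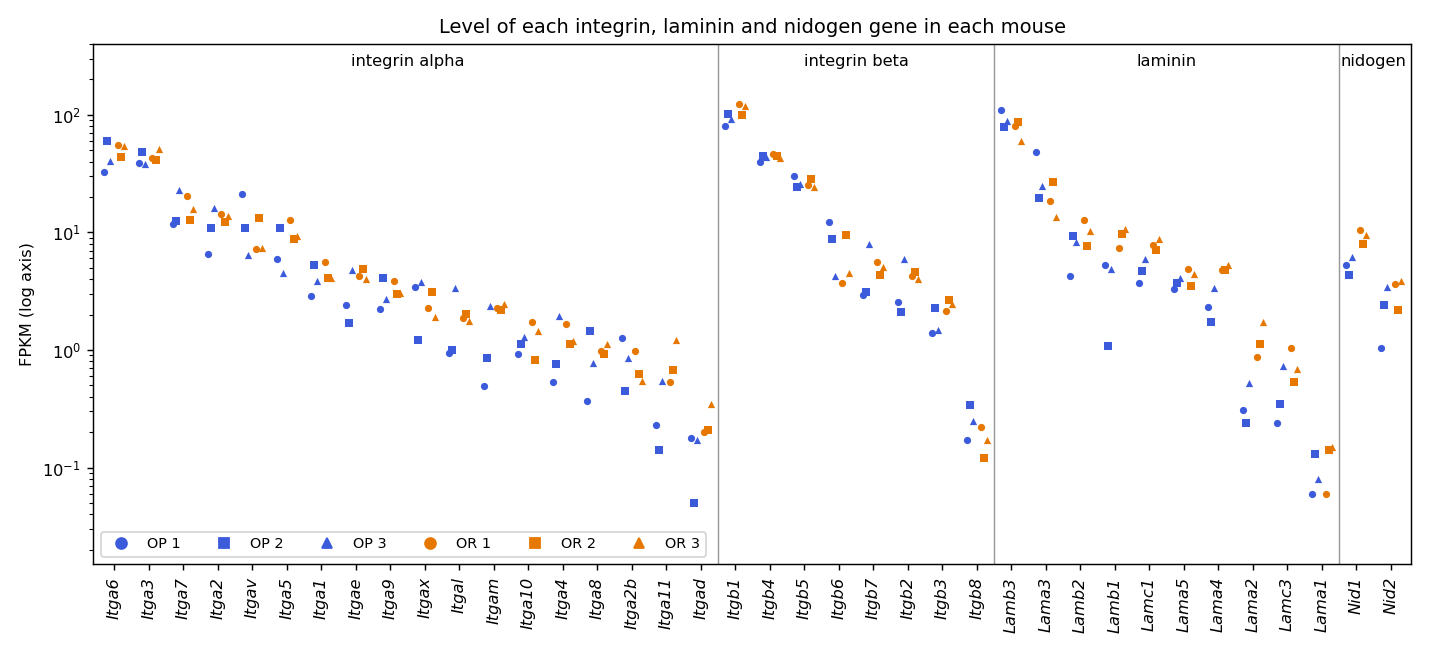
FPKM (log axis) of 38 of the genes in each of the 6 mice, OP in blue and OR in orange, with the marker shape giving the mouse number. Levels run from *Itgb1* and *Lamb3*, near 100 FPKM, to *Lama1*, never above 0.15 FPKM.

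Of the laminin alpha chains, *Lama4*, the chain of vessel walls, had 2.33, 1.74 and 3.37 FPKM in OP mice 1, 2 and 3 and 4.80, 4.80 and 5.30 FPKM in OR mice 1, 2 and 3. The highest OP mouse was thus well under the lowest OR mouse, and the OR mean was 2.00 times the OP mean. Its log2 fold change was -0.80 (standard error 0.22) with an unadjusted p of 0.00718 and an adjusted p of 0.826 by limma-trend. *Lama2*, the chain of muscle and nerve laminins, had 0.31, 0.24 and 0.52 FPKM in OP mice and 0.87, 1.12 and 1.73 FPKM in OR mice. The groups did not overlap at this low level, and the ratio of the means was 3.48. On the log2(FPKM + 1) scale, which understates the change of a gene as low as this, the difference was -0.71 (standard error 0.20, adjusted p = 0.853 by limma-trend).

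*Lama5*, the alpha chain under epithelia and also in vessels, had 3.30, 3.70 and 4.07 FPKM in OP mice and 4.92, 3.48 and 4.40 FPKM in OR mice, and the groups overlapped. The log2 fold change of *Lama5* was -0.16, with a 95% confidence interval from -0.61 to 0.28 and an adjusted p of 0.945 by limma-trend. *Lama3*, the alpha chain of the laminin to which hemidesmosomes attach, was the highest alpha chain, with 48.5, 19.6 and 24.7 FPKM in OP mice and 18.6, 26.9 and 13.6 FPKM in OR mice. It was highest in OP mouse 1 and the groups overlapped.

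The beta chains split the same way. *Lamb1*, the beta chain of most laminins of mesenchyme and vessels, had 5.29, 1.07 and 4.90 FPKM in OP mice and 7.29, 9.75 and 10.7 FPKM in OR mice. OP mouse 2 lay far below the other mice, and the range over all 6 mice was 9.99-fold. The log2 fold change of *Lamb1* was -1.25 (standard error 0.43), the lowest among the 36 genes, with an unadjusted p of 0.0210 and an adjusted p of 0.945 by limma-trend. With 1 mouse left out it ranged from -1.54 to -0.73, the latter without OP mouse 2. *Lamc1*, the gamma chain shared by most laminin trimers, had 3.68, 4.68 and 5.89 FPKM in OP mice and 7.83, 7.07 and 8.71 FPKM in OR mice, again without overlap. The fitted difference for *Lamc1* was -0.64 on the log2 scale with a standard error of 0.20 (adjusted p = 0.945 by limma-trend).

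*Lamb3*, which joins *Lama3* in the epithelial laminin, did not separate the groups. It had 110, 78.9 and 87.9 FPKM in OP mice and 80.7, 86.4 and 60.3 FPKM in OR mice. *Lamb2*, the beta chain of muscle and nerve-contact laminins, ranged from 4.28 to 9.39 FPKM in OP mice and from 7.60 to 12.8 FPKM in OR mice, and *Lamc3*, a less common gamma chain, from 0.24 to 0.73 and from 0.53 to 1.03 FPKM. Both overlapped.

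Of the nidogens, *Nid1* had 5.25, 4.38 and 6.22 FPKM in OP mice and 10.4, 7.90 and 9.50 FPKM in OR mice. The groups were apart by more than 1 FPKM, and the OR mean was 1.75 times the OP mean. The log2 fold change was -0.71 (standard error 0.19) with an unadjusted p of 0.00736 and an adjusted p of 0.826 by limma-trend, and it stayed between -0.82 and -0.60 with 1 mouse left out. *Nid2*, the other nidogen, was lower in level, with 1.04, 2.42 and 3.45 FPKM in OP mice and 3.62, 2.2 and 3.83 FPKM in OR mice. The groups overlapped, with a log2 fold change of -0.40 (95% confidence interval -1.16 to 0.35, adjusted p = 0.945 by limma-trend). Because *Nid1* and *Lamc1*, whose proteins bind each other, were both lower, their log2 ratio *Nid1*/*Lamc1* overlapped, with 0.165 ± 0.313 (SD, n = 3) for OP and 0.231 ± 0.153 (SD, n = 3) for OR. For each of *Lama2*, *Lama4*, *Lamb1*, *Lamc1* and *Nid1* a two-sided exact permutation test gave p = 0.1, the smallest p it can give for 3 mice against 3.

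**Figure D2:**
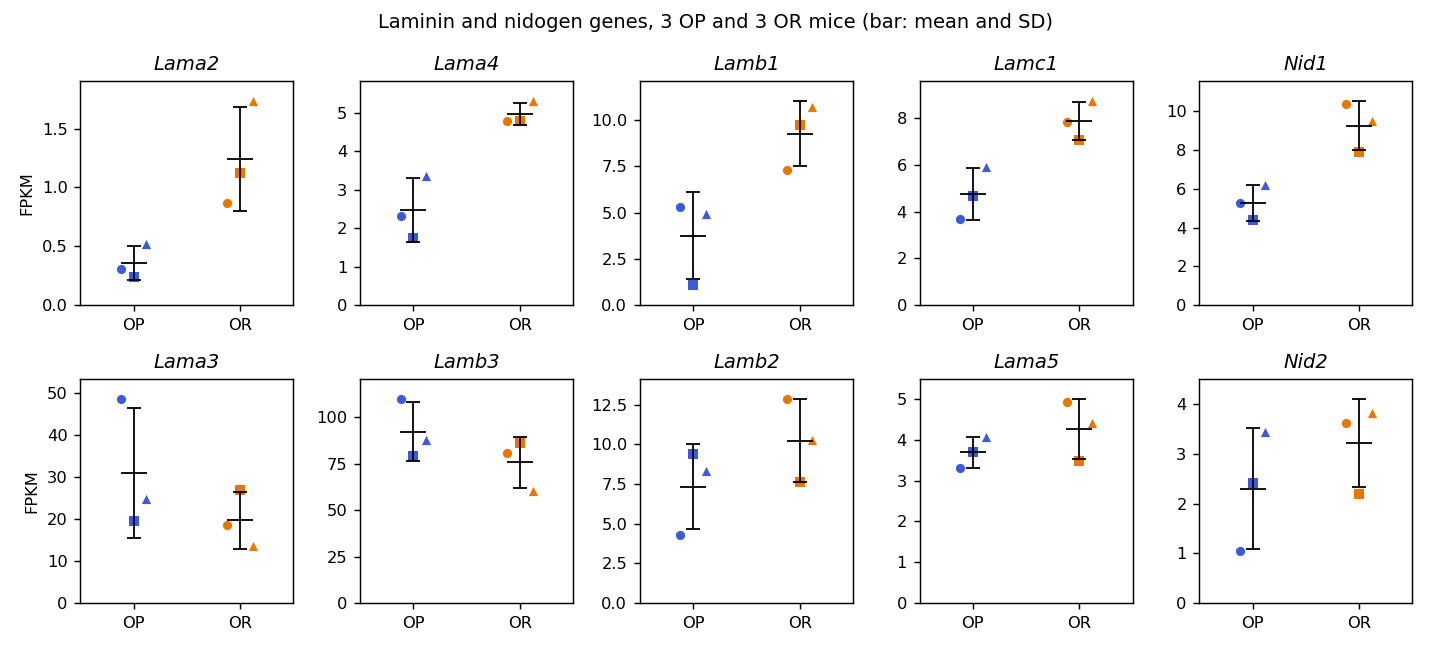
FPKM of 10 laminin and nidogen genes in 3 OP (blue) and 3 OR (orange) mice, each panel on its own linear axis from 0, with bars for the mean and SD of each group. The upper row (*Lama2*, *Lama4*, *Lamb1*, *Lamc1*, *Nid1*) shows groups without overlap and the lower row (*Lama3*, *Lamb3*, *Lamb2*, *Lama5*, *Nid2*) shows groups that overlap.

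The make-up of the laminin pool differed accordingly. The log2 ratio of (*Lama2* + *Lama4*) to (*Lama3* + *Lama5*), the alpha chains of muscle and vessel laminins against those under epithelia, was -4.29, -3.56 and -2.89 in OP mice and -2.05, -2.36 and -1.35 in OR mice. Every OR mouse was higher, and the difference of the group means was -1.66. The summed laminin FPKM itself overlapped, at 138 to 188 in OP mice and 132 to 159 in OR mice. These values are scores over the genes followed here and were given no test. The fibroblast, blood endothelium and macrophage markers listed above moved in the same direction. So did 6 of 6 smooth muscle and 3 of 3 enteric glia markers, whose sums overlapped between the groups. The part of all these markers in the laminin difference was not tested.

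The upstream sequences of the separated genes are shown because genes that move together are often compared there. RefSeq windows were found for 24 of the 39 genes, among them *Nid1*, *Lamb1* and *Lama2* but not *Lama4* or *Lamc1*. Each run gives the 250 bases before the RefSeq start on GRCm38.p6, 5′ to 3′ on the strand of the gene, at chr13:13437352-13437601 (plus strand) for *Nid1*, chr12:31265043-31265292 (plus strand) for *Lamb1* and chr10:27616943-27617192 (minus strand) for *Lama2*. Capitals mark the GC box GGGCGG or the CCAAT box CCAAT, each searched on both strands, so that CCGCCC and ATTGG are their reverse forms. None of these motifs overlap in the 3 windows.

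Nid1: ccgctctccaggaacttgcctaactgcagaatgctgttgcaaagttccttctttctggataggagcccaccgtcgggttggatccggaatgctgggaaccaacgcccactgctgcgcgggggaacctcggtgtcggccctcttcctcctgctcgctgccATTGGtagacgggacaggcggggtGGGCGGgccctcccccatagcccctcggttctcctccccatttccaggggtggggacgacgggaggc
Lamb1: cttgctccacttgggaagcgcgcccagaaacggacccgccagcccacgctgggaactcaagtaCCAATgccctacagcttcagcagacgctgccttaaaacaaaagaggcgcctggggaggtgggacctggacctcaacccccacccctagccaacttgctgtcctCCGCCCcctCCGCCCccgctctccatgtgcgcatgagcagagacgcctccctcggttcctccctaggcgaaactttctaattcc
Lama2: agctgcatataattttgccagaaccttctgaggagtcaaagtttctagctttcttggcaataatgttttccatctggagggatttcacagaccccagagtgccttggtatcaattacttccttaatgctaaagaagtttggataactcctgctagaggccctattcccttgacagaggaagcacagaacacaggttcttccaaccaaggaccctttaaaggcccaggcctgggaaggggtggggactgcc

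The 3 windows had little in common. *Nid1* held 1 GC box and 1 CCAAT box, *Lamb1* held 2 GC boxes and 1 CCAAT box, and *Lama2* held 0 of either. The TATA box TATAAA was in 0 of the 3. The CpG dinucleotide occurred 16 times in the *Nid1* window, 14 times in that of *Lamb1* and 0 times in that of *Lama2*, where the median of all 32851 windows of this length was 6. A GC box was present in 32.7% of all windows and in 10 of the 27 windows of the genes followed here, and a CCAAT box in 33.8% and in 5 of 27. A match is only a run of letters, not a site shown to be bound.

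Among the integrins that bind laminin, the levels were high and close between the groups. *Itga6*, which pairs with *Itgb4* in hemidesmosomes, had 32.9, 60.1 and 40.3 FPKM in OP mice and 55.5, 43.3 and 54.4 FPKM in OR mice, with overlap. *Itgb4* had 39.3, 44.6 and 43.6 FPKM in OP mice and 46.2, 44.3 and 42.8 FPKM in OR mice. It was the steadiest of the 39 genes, with its highest mouse 1.17 times its lowest. The log2 fold change was -0.23 (95% confidence interval -0.77 to 0.30) for *Itga6* and -0.06 (95% confidence interval -0.34 to 0.21) for *Itgb4*, with adjusted p-values of 0.945 and 0.954 by limma-trend. Median-of-ratios scaling moved the median of all genes from -0.10 to 0.01, and with it *Itgb4* to 0.07, *Itga3* from -0.10 to 0.04 and *Itga7* from -0.08 to 0.05. *Itga3*, the other epithelial laminin receptor subunit, lay between 38.5 and 50.9 FPKM in the 6 mice, and *Itga7*, that of muscle, between 11.7 and 23.1 FPKM, highest in OP mouse 3. None of these 4 receptor genes, and neither *Lama3* nor *Lamb3*, separated the groups.

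*Itgb1*, the beta subunit shared by most matrix-binding integrins, was the highest of the 39 genes, with 79.7, 102 and 91.6 FPKM in OP mice and 123, 99.9 and 118 FPKM in OR mice. Only OP mouse 2 and OR mouse 2 crossed. The OR mean was 1.24 times the OP mean, and the log2 fold change was -0.31 (95% confidence interval -0.65 to 0.02) with an unadjusted p of 0.0641 and an adjusted p of 0.945 by limma-trend. After median-of-ratios scaling it was -0.18. The 12 alpha subunits that can pair with Itgb1 summed to 124, 166 and 140 FPKM in OP mice and 167, 142 and 164 FPKM in OR mice, with overlap. *Itgb1* relative to that sum was lower in every OP mouse, with log2 ratios of -0.64, -0.70 and -0.61 against -0.45, -0.51 and -0.47 in OR mice. This ratio does not depend on the scaling between mice. It is a description of 1 gene against the sum of its partners and was given no test.

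Collagen-binding alpha subunits were *Itga1*, *Itga2*, *Itga10* and *Itga11*. All 4 had a log2 fold change below 0, and none passed an unadjusted p below 0.05 by limma-trend. *Itga11*, a receptor subunit of fibroblasts, came nearest, with 0.23, 0.14 and 0.54 FPKM in OP mice and 0.53, 0.68 and 1.22 FPKM in OR mice. OP mouse 3 and OR mouse 1 crossed by 0.01 FPKM, the last decimal of the file. *Itga2*, found on epithelium and platelets, was the most abundant of the 4, from 6.59 to 15.99 FPKM in OP mice and from 12.2 to 14.2 FPKM in OR mice. *Itga1* ranged from 2.86 to 5.57 FPKM and *Itga10* from 0.82 to 1.74 FPKM over the 6 mice.

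Among the integrins that bind the RGD tripeptide of fibronectin and similar ligands, *Itgav* had 21.2, 10.9 and 6.39 FPKM in OP mice and 7.16, 13.2 and 7.33 FPKM in OR mice. *Itgb6*, its partner on epithelium in the activation of latent TGF-beta, had 12.3, 8.84 and 4.22 FPKM in OP mice and 3.73, 9.52 and 4.50 FPKM in OR mice. Both were highest in OP mouse 1 and, within the OR group, in OR mouse 2. The same mice were highest in their groups for *Lama3* and *Lamb3* and for 5 of the 7 epithelial markers, *Car1* (14584 and 15723 FPKM), *Krt20*, *Epcam*, *Vil1* and *Cdh17*. The other markers were *Krt8*, highest in OP mouse 2 and OR mouse 2, and *Krt18*, highest in OP mouse 2 and OR mouse 3 and lowest of all in OP mouse 1 (103 FPKM). The laminin receptor genes of epithelium did not follow these mice. *Itga6* was lowest of all in OP mouse 1 (32.9 FPKM) and, within the OR group, in OR mouse 2 (43.3 FPKM). *Itgb4* was lowest of all in OP mouse 1 (39.3 FPKM), and *Itga3* was lowest of the OR mice in OR mouse 2 (41.0 FPKM). The part of the markers in these levels was not tested. The log2 fold change of *Itgav* was 0.34 (95% confidence interval -0.63 to 1.31, adjusted p = 0.945 by limma-trend) and became -0.08 without OP mouse 1.

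*Itga5*, the fibronectin receptor subunit, had 5.99, 10.8 and 4.55 FPKM in OP mice and 12.7, 8.86 and 9.38 FPKM in OR mice, with OP mouse 2 inside the OR range. *Itgb5* lay between 24.4 and 29.9 FPKM in all 6 mice. *Itgb3*, a subunit of platelets and vessels, ranged from 1.40 to 2.27 FPKM in OP mice and from 2.14 to 2.67 FPKM in OR mice. *Itga2b*, its platelet partner, ranged from 0.45 to 1.26 FPKM and overlapped, while the platelet markers *Gp9* and *Gp1ba* were never above 0.11 FPKM and *Pf4*, listed with them, had 0.79 to 3.00 FPKM in OP mice and 6.78 to 10.04 FPKM in OR mice. *Itga8*, found on smooth muscle, ranged from 0.37 to 1.45 FPKM, *Itgb8* from 0.12 to 0.34 FPKM and *Itga9*, a receptor subunit for tenascin, from 2.22 to 4.12 FPKM.

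The sum of the integrins of leukocytes gave a pattern of single mice and not of groups, which *Itgae*, *Itgam*, *Itgax* and *Itgad* did not follow. The 8 genes summed to 13.5, 10.8 and 30.2 FPKM in OP mice and 22.4, 22.5 and 20.8 FPKM in OR mice. OP mice 1 and 2 were below every OR mouse and OP mouse 3 was above every one. *Itgb2*, the beta subunit of all leukocytes, had 2.56, 2.11 and 5.89 FPKM in OP mice and 4.27, 4.61 and 4.01 FPKM in OR mice, with a log2 fold change of -0.32 (95% confidence interval -1.04 to 0.40, adjusted p = 0.945 by limma-trend). *Itgae*, which with *Itgb7* holds lymphocytes to epithelial E-cadherin, had 2.42, 1.70 and 4.80 FPKM in OP mice and 4.27, 4.89 and 4.05 FPKM in OR mice, with a log2 fold change of -0.52 (95% confidence interval -1.20 to 0.17, adjusted p = 0.945 by limma-trend). In *Itgae* OP mouse 3 lay inside the OR range. The split of the sum held for *Itgb2* and for *Itgb7*, the latter with 2.94, 3.08 and 7.92 FPKM in OP mice and 4.38 to 5.57 FPKM in OR mice.

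OP mouse 3 was the highest of the 6 mice in 5 of the 8 genes. It also had the highest level of the B cell marker *Cd79a*, with 39.8 FPKM against 3.05 to 5.67 FPKM in the other mice, and of the T cell marker *Cd3e*, with 5.0 against 1.43 to 4.25 FPKM. Of the other lymphocyte markers, *Cd3d*, *Cd8a* and *Ms4a1* were also highest in OP mouse 3. *Jchain* went the other way, with 48.8, 41.6 and 91.1 FPKM in OP mice and 120, 130 and 154 FPKM in OR mice. Without OP mouse 3, *Itga4*, *Itgae*, *Itgal*, *Itgam*, *Itgb2* and *Itgb7* were lower at an unadjusted limma-trend p below 0.05, and with it none was. *Itgam*, of macrophages and granulocytes, had 0.49, 0.86 and 2.36 FPKM in OP mice and 2.29, 2.17 and 2.44 FPKM in OR mice. *Itgax*, of dendritic cells and macrophages, had 3.44, 1.21 and 3.75 FPKM in OP mice and 2.26, 3.11 and 1.90 FPKM in OR mice. *Itga4* and *Itgal*, used in homing and in contact between leukocytes, ranged from 0.53 to 1.94 FPKM and from 0.95 to 3.36 FPKM. In both, OP mouse 1 was the lowest and OP mouse 3 the highest of the 6 mice.

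**Figure D3:**
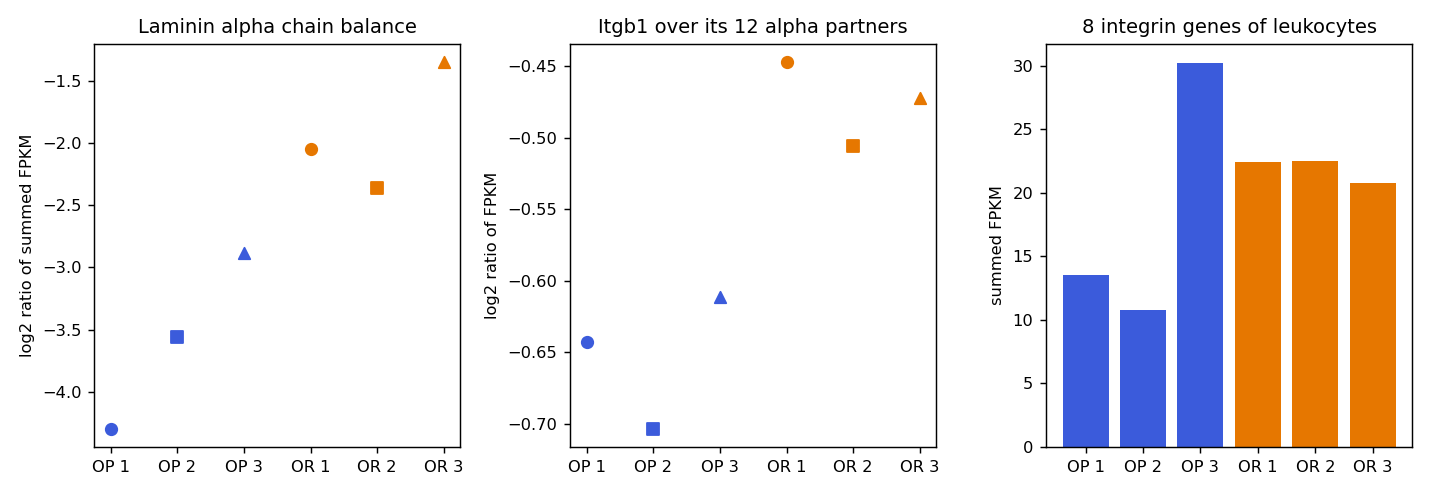
Plotted are 3 measures in each mouse, OP in blue and OR in orange: the log2 ratio of *Lama2* + *Lama4* to *Lama3* + *Lama5* FPKM (left), the log2 ratio of *Itgb1* to its 12 possible alpha partners (middle) and the summed FPKM of 8 integrin genes of leukocytes (right, bars from 0). The OP and OR mice do not overlap in the left and middle panels, and OP mouse 3 is the highest of all in the right panel.

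Over all genes followed, the median log2 fold change was -0.21 for the 36 tested, where the median of all 13520 genes was -0.10. Of the 36, 29 (80.6%) were below 0, against 70.1% of all genes. After median-of-ratios scaling the median was -0.10 and 24 of 35 (68.6%) were below 0, against 48.0% of all genes, so relative to all genes it was -0.10 and -0.11. The same 5 genes were lower at an unadjusted limma-trend p below 0.05 under both scalings, and after median-of-ratios scaling 3.12% of all genes were lower and 1.14% higher at that level (421 and 154 genes, against 477 and 68 without it). By family, the median was -0.16 for 17 integrin alpha genes, -0.20 for 7 integrin beta genes, -0.37 for 10 laminin genes and -0.56 for the 2 nidogen genes. Of these, 0, 0, 4 and 1 were lower at an unadjusted p below 0.05 by limma-trend. For comparison, 29 collagen genes had a median of -0.50 and 15 of them (51.7%) were lower at that level, against 3.53% of all genes tested. The study had already reported *Col6a3*, *Col3a1* and *Col1a1* as higher in the colon of OR mice, so the collagen share is a description and not separate evidence. The difference between the families was not tested.

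**Figure D4:**
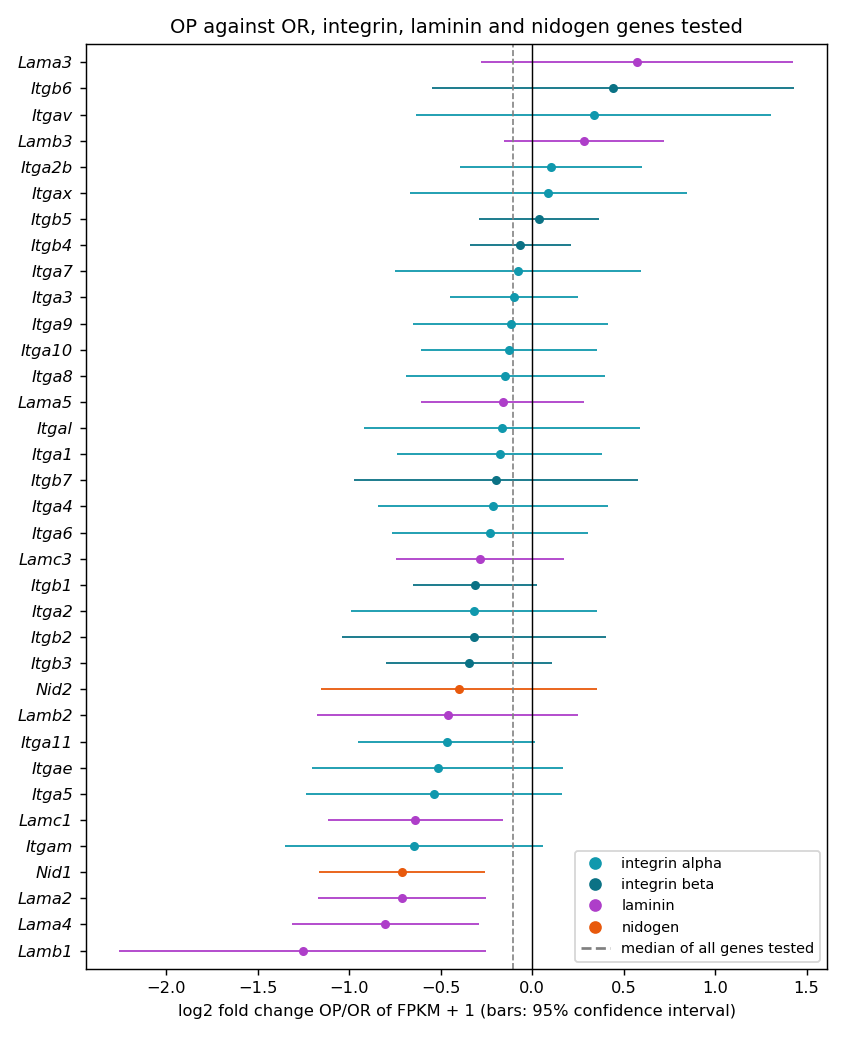
Log2 fold change OP/OR of FPKM + 1 for 35 of the genes tested, with 95% confidence intervals from limma-trend, not adjusted for the number of genes. The dashed line is the median of all genes tested, -0.10, and the intervals of 5 genes, 4 laminins and *Nid1*, lie wholly below 0.

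The partners of these genes were examined from lists chosen with earlier results of these data known. The shares given for these lists are therefore descriptions only. Of 21 other basement membrane components 16 were tested, with a median log2 fold change of -0.43. Of these, 7 (43.75%) were lower at an unadjusted limma-trend p below 0.05, against 3.53% of all genes tested, and 0 were higher, against 0.503%. After median-of-ratios scaling 4 (25%) were lower, against 3.12% of all genes. *Col4a1*, one of the chains of the collagen network to which nidogen binds, had 10.1, 11.2 and 11.4 FPKM in OP mice and 19.2, 14.7 and 18.0 FPKM in OR mice. *Col18a1*, a collagen of epithelial and vessel basement membranes, had 3.09, 2.39 and 4.53 FPKM in OP mice and 5.91, 5.89 and 6.74 FPKM in OR mice. Neither overlapped, with log2 fold changes of -0.62 (adjusted p = 0.798 by limma-trend) and -0.75 (adjusted p = 0.933 by limma-trend). All OP mice lay below all OR mice in 5 of the 16 genes, against 6.81% of all genes. They lay above in 1, *Col7a1*, against 1.63%, and that gene passed the filter with 3 OP mice and 0 OR mice. The others of the 7 were *Col4a2*, *Col4a5*, *Col15a1*, *Npnt* and *Pxdn*, with log2 fold changes between -0.77 and -0.41. *Hspg2* and *Agrn*, the heparan sulfate proteoglycans of the basement membrane, overlapped between the groups.

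Of 5 other laminin receptors, 0 were lower or higher at that level. *Dag1*, which encodes dystroglycan, had 42.3 to 59.8 FPKM in OP mice and 53.1 to 56.8 FPKM in OR mice. *Bcam*, a receptor for the Lama5 chain, had 4.04, 7.88 and 9.81 FPKM in OP mice and 13.3, 8.46 and 12.8 FPKM in OR mice, with OP mouse 3 inside the OR range. Of the hemidesmosome genes, *Plec*, *Dst* and *Cd151* were tested, and their log2 fold changes were 0.01, 0.22 and -0.02. *Col17a1* was never above 0.08 FPKM.

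Inside the cell, integrins connect to actin through adaptors, of which 31 were tested. Their median log2 fold change was -0.20, where that of all genes tested was -0.10. At an unadjusted limma-trend p below 0.05, 1 of 31 (3.23%) was lower, near the 3.53% of all genes. In the other direction 1 was higher, against 0.503% of all genes. *Zyx*, which encodes the focal adhesion protein zyxin, had 37.3, 35.8 and 32.9 FPKM in OP mice and 52.0, 40.7 and 59.5 FPKM in OR mice, a log2 fold change of -0.50 (adjusted p = 0.945 by limma-trend), and after median-of-ratios scaling 0 adaptors were lower at that level. *Ptk2b*, a kinase of the focal adhesion kinase family, had 34.8, 29.6 and 35.7 FPKM in OP mice and 28.6, 25.2 and 23.6 FPKM in OR mice, a log2 fold change of 0.36 (adjusted p = 0.945 by limma-trend). *Tln1* and *Ptk2*, for talin and focal adhesion kinase, differed by less than the spread between mice, with log2 fold changes of -0.09 and -0.06.

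Of 19 integrin ligands outside the basement membrane 17 were tested, with a median of -0.45. At an unadjusted limma-trend p below 0.05, 5 (29.4%) were lower, against 3.53% of all genes tested, and 0 were higher, against 0.503%. All OP mice lay below all OR mice in 7 of the 17, against 6.81% of all genes. *Postn*, a matrix ligand of Itgav integrins, was the only gene of these lists that passed the q-value threshold of 0.2, and only just (adjusted p = 0.198 by limma-trend). Of all genes tested, 0.0222% were called lower. Its log2 fold change was -0.94, and after median-of-ratios scaling, when 0 genes of these lists passed the threshold, it was -0.80 with an unadjusted limma-trend p of 0.00145. Among all genes tested, 3 were called lower in the main fit, 2 without trend, 5 with sample weights and 1 without OP mouse 2. In every other run 0 were called lower, *Postn* included. *Postn* had 35.1, 35.6 and 33.8 FPKM in OP mice and 68.2, 67.4 and 67.2 FPKM in OR mice, without overlap. The other 4 were *Fn1*, *Vwf*, *Ccn2* and *Svep1*. *Svep1* passed the filter with 3 OR mice and 1 OP mouse, so its entry leaned on the group where it was high. *Fn1*, which encodes fibronectin, had 10.7, 13.96 and 7.92 FPKM in OP mice and 23.9, 14.1 and 14.7 FPKM in OR mice, just without overlap. The ligands of leukocyte integrins, *Icam1*, *Vcam1* and *Madcam1*, overlapped between the groups, and *Cdh1*, for E-cadherin, had 266 to 382 FPKM in OP mice and 255 to 282 FPKM in OR mice.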

How the data were processed

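Colon RNA of 3 OP and 3 OR mice was analysed. Reads had been cleaned with SOAPnuke, mapped to a gene set with Bowtie2 and counted with RSEM by the authors, who deposited FPKM values given to 2 decimals. The methods and the labels give different versions of these tools, and the submitters' processing notes also name HISAT2 2.0.4 and GRCm39 without a role. Depth, and so counting error, is unknown.

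A gene was tested if 3 or more mice reached 0.5 FPKM (13520 genes). Group differences in log2(FPKM + 1) were fitted with limma-trend in limma 3.58.1 under R 4.3.3, with no covariate. The count model of the study was not used, since the values are not counts. The fit was tested on simulated data of this comparison (13520 genes), where 68.5% of 200 genes changed by 1 on the log2 scale and 95.5% of 200 changed by 2 had a q-value below 0.2 in the right direction. The changed genes were drawn from those with a mean log2(FPKM + 1) above 2, with independent normal noise. These shares do not cover lower genes such as *Lama2*, or smaller changes. Of the separated genes tested, only *Lamb1* had a fitted change larger than 1. Single genes were compared by exact permutation (SciPy 1.17.1, 20 arrangements). Every gene of the rule is named but 1, which is counted but not reported here. Tests are given for genes with an unadjusted p below 0.05, for separated groups among genes tested and for 13 genes of fixed role. The genes and lists were chosen with earlier results of these data known. *Itgb1*-pairing alpha subunits were Itga1 to Itga11 and Itgav. P-values of limma-trend set the group difference against the spread between mice within the groups, estimated with the help of all genes tested. The permutation p ranks the difference of the means among the 20 arrangements of these 6 samples. Motifs were searched in RefSeq windows of GRCm38.p6, another build than the authors'.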

Additional observations from a re-analysis of the deposited data

How the results depend on the processing

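The count of genes called at a q-value below 0.2 was 0 in each direction under every alternative run, which included a pseudocount of 0.1, both other filters, sample weights, median-of-ratios scaling, limma with no trend, rescaling to TPM (chosen after seeing the data), the replicate block and each mouse left out. The count lower at an unadjusted p below 0.05 was 5, and from 3 to 13 with 1 mouse left out (3 without OR mouse 3, 8 without OP mouse 2, 13 without OP mouse 3). Over all genes tested it was 477 with all mice and 223, 615 and 1094 without those mice, in the same order. The count higher was 0 throughout these fits. Groups with all OP mice below all OR mice numbered 5, and from 5 to 15 with 1 mouse left out, and with all OP mice above 0, and from 0 to 2. Groups separate more easily with fewer mice, and the share of all genes was not counted with a mouse left out. These ranges are therefore no result about the genes followed here. The median log2 fold change of -0.21 became -0.0955 with median-of-ratios scaling and -0.319 with a pseudocount of 0.1, and ranged from -0.311 to -0.0607 with 1 mouse left out. The laminin alpha chain difference of -1.66 ranged from -2.00 to -1.30. Of 181 alternative values of the 13 genes with a test, 2 changed sign, *Itgb4* to 0.0717 with median-of-ratios scaling, which moved the median of all genes from -0.10 to 0.01, and *Itgav* to -0.0760 without OP mouse 1, in a range from -0.0760 to 0.716 with 1 mouse left out. The other causes were not tested.

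With the replicate block, 5 genes were again lower at an unadjusted p below 0.05. Same-numbered mice are different animals, so the numbers were not taken to pair them. Their deviations from the group means had a mean correlation of -0.0765, where those of different-numbered mice ranged from -0.464 to 0.537. So few pairs cannot decide whether same-numbered mice are alike. Depth is unknown and limits what can be said of genes under 0.5 FPKM.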
